A study of Mus musculus with 2 samples.

Results

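The T cell receptor alpha variable genes (Trav) were examined in single-cell RNA from the stomach of TxA23 mice. All genes whose symbol starts with Trav were taken, which gave 128 of the 31053 genes in the count tables. TxA23 is a T cell receptor transgenic strain in which T cells recognise the proton pump of gastric parietal cells and autoimmune gastritis follows. Which variable segments the transgene carries, the promoter that drives it and the strain background were not given in the sources used here. Mice of 3 months of age received a subcutaneous osmotic pump for 4 weeks. In the IL-27 group, 3 females, the pump held 800 ng of recombinant IL-27 in 200 µL (4 µg per mL). In the PBS group, 1 female and 1 male, it held PBS alone. Every animal of both groups carried the transgene. Live CD45+ cells were sorted from the gastric mucosa and sequenced with 10x Genomics 5′ chemistry, which reads the variable end of receptor transcripts.

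An alpha chain is made when a developing T cell joins 1 of the Trav segments to a joining segment and the constant gene Trac. The beta chain is made in the same way from the Trbv segments, and both chains together recognise peptide on MHC. A developing cell can go on rearranging its alpha locus on both alleles, so T cells can carry a pair of alpha chains, and a transgenic alpha chain does not fully stop this. Segments whose symbol holds "dv" can be used by alpha and by delta chains. The mouse alpha locus was duplicated in evolution, so many segments have a near copy, marked by the letters d and n.

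In the IL-27 library 80121995 UMIs fell on 20897 barcodes, against 43501501 UMIs on 12276 barcodes in the PBS library. Barcode suffixes split them into 3 IL-27 wells and 2 PBS wells. The labels do not say that a well is 1 animal, so every p-value below measures the spread between wells, which may be technical, and every interval covers counting error only. Of 20717 IL-27 and 12225 PBS barcode sequences, 355 occurred in both libraries. After filtering, 19972 IL-27 and 11693 PBS cells remained. Cell types were gated on raw marker UMIs. A T cell had at least 2 Cd3 UMIs and no UMI of the B cell markers used, Cd79a and Ms4a1 among them. CD4 cells also had Cd4 without Cd8a, Cd8b1 or Foxp3, Treg cells had Cd4 and Foxp3, and CD8 cells had Cd8a or Cd8b1 without Cd4. These gates held 2482 CD4, 337 Treg and 2157 CD8 cells, with median depths of 3777.5, 3407 and 5540 UMIs. Among the CD8 gates, that of PBS well 2 stood apart. Its summed T cell markers (Cd3d, Cd3e, Cd3g, Trac) were 7028 CPM (UMIs scaled to a common total per gate and well), against 2963 to 3184 CPM in the other 4 wells, its summed NK markers (Ncr1, Klrb1c, Eomes, Prf1) were 1107 CPM against 152 to 195 CPM, its gamma-delta markers (Trdc, Tcrg-C1, Tcrg-C2, Tcrg-C4, Sox13) 527 CPM against 70.2 to 109 CPM and its myeloid markers (Lyz2, Cst3, Csf1r) 673 CPM against 90.3 to 176 CPM, and its median depth was 4194.5 UMIs against 5370 to 5952.

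Stretches of 4 coding sequences are shown because the results turn on these segments and because the counting had to tell them from near copies. They are given for GRCm38 (GENCODE M21), chromosome 14, plus strand, as the 300 coding bases that hold the most differences. Trav4-4-dv10 lies at chr14:53683647-53684177, Trav4-3 at chr14:53598828-53599410, Trav3-3 at chr14:53665929-53666506 and Trav14d-3-dv8 at chr14:53078452-53079045, each as a gene with its intron. Capitals mark the bases that differ from the most similar other Trav gene. Over the whole coding sequence these are 8 of 331 bases in Trav4-4-dv10 (against Trav4n-4), 8 of 331 in Trav4-3 (against Trav4n-3), 4 of 343 in Trav3-3 (against Trav3n-3) and 10 of 361 in Trav14d-3-dv8 (against Trav14-3, 9 of them shown). Counted from the first base of the start codon, bases 1 to 300 are shown of Trav4-4-dv10 and Trav4-3, 24 to 323 of Trav3-3 and 14 to 313 of Trav14d-3-dv8.
Trav4-4-dv10: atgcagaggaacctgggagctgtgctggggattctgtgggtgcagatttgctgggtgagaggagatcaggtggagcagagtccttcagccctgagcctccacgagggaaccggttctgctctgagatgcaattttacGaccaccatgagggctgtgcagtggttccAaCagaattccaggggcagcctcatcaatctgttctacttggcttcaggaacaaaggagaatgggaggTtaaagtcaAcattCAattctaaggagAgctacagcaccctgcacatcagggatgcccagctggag
Trav4-3: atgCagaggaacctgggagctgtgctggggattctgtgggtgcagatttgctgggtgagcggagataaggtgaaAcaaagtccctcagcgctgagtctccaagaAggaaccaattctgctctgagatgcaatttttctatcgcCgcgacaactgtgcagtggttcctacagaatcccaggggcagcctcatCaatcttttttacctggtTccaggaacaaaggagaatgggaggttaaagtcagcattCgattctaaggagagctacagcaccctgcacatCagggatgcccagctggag
Trav3-3: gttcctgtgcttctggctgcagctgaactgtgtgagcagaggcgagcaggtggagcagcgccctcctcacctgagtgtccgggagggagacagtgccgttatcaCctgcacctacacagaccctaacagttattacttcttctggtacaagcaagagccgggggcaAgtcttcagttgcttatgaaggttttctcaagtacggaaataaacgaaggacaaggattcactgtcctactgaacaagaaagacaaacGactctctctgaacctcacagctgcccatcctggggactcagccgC
Trav14d-3-dv8: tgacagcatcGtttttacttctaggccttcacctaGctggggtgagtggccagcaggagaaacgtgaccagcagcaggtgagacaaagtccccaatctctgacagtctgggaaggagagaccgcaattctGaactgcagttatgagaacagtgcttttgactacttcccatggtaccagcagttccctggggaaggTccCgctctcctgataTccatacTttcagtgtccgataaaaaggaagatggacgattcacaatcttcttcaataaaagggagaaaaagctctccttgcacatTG

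The 128 genes span chr14:52427928-53977678 in GRCm38, all on the plus strand. The annotation types 108 as functional variable genes and 20 as pseudogenes. In the barcodes as deposited, 108 genes had at least 1 UMI and 20 had none. In the CD4, Treg and CD8 gates together (4976 cells, 17851 Trav UMIs), 104 genes had a UMI and 52 had at least 50. Of the 24 genes with no UMI there, 14 were pseudogenes. Near copies may limit the counts, which was not tested. Of all members, 34 had a coding sequence identical to another member's. The 58 genes in which under 20% of 50-base windows were unique among Trav genes had a median of 5 UMIs, against 101 UMIs for the 70 genes with at least 20% unique windows. Some of the 58 had many more, such as Trav7-3 with 606 UMIs and Trav14d-2 with 153. Leaving out Trav14d-3-dv8, the 55 genes with no copy letter held 79.8% of Trav UMIs in CD4, 75.6% in Treg and 74.9% in CD8 cells, d copies held 14.4%, 17.7% and 17.9%, and n copies held 5.85%, 6.70% and 7.14%.

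One segment did not mark T cells. Trav14d-3-dv8 was seen in 31.9% of CD4 cells (95% exact binomial interval 30.1 to 33.8), 24.3% of Treg cells and 31.8% of CD8 cells, and also in 22.7% of 14693 B cells (22.0 to 23.3; Cd79a and Ms4a1 present, no Cd3 UMI) and 13.9% of 510 NK cells. In CPM it reached 111 in CD4, 86.2 in Treg, 81.4 in CD8, 87.5 in B and 62.8 in NK cells. In B cells it made up 4212 of 4456 Trav UMIs (94.5%). All other Trav genes together were seen in 78.8% of CD4, 74.5% of Treg and 70.9% of CD8 cells, against 1.64% of B cells and 1.57% of NK cells, at median depths of 3777.5, 3407, 5540, 2903 and 2876 UMIs. The most frequent of these in B cells, Trav13-1, was found in 0.368% of them. Trbv1 behaved like Trav14d-3-dv8. It was seen in 67.7% of CD4, 75.1% of Treg and 60.7% of CD8 cells, and in 74.3% of B cells and 72.0% of NK cells. Other Trbv genes were seen in 49.0%, 64.1% and 74.0% of CD4, Treg and CD8 cells and in 0.966% of B and 0.784% of NK cells. In 176 myeloid cells, at a median depth of 5304.5 UMIs, Trav14d-3-dv8 was seen in 7.39% (13.8 CPM) and Trbv1 in 46.0%. Trbv1 was thus as frequent in B and NK cells as in T cells and less so in myeloid cells, and the groups called Trbv1-positive and Trbv1-negative below are named for that count alone.

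**Figure D1:**
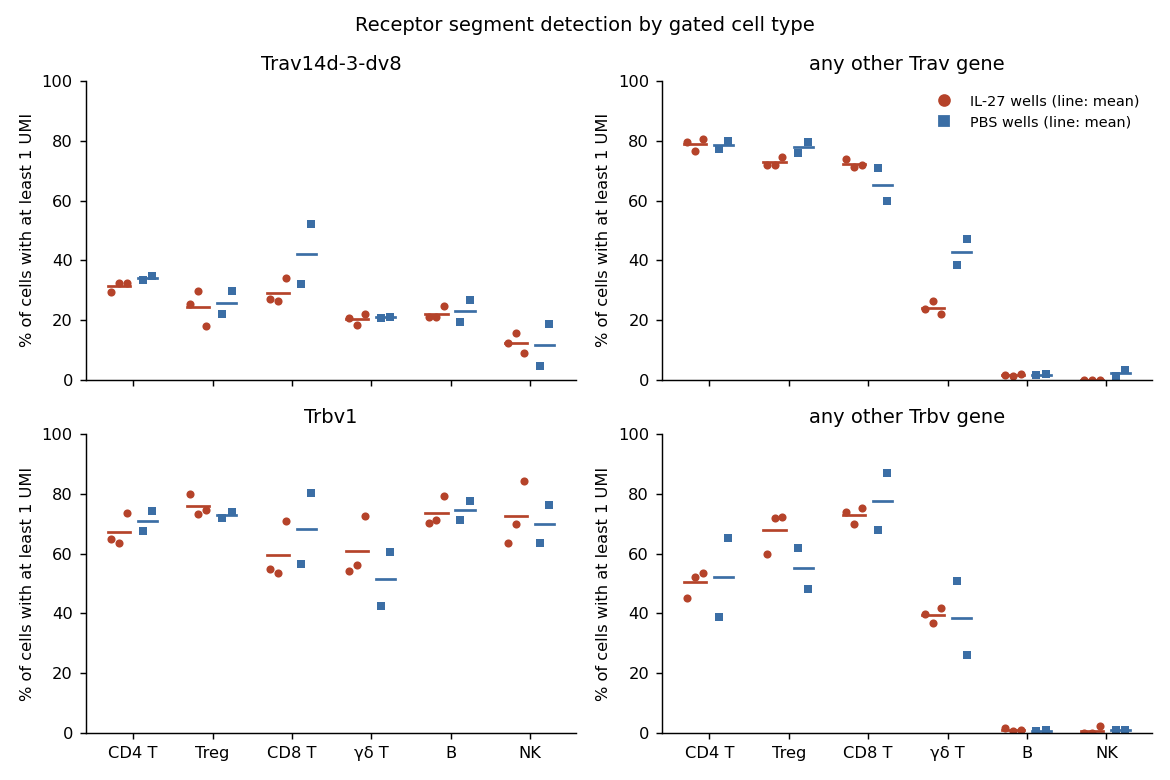
Percent of cells (y axis) with at least 1 UMI of Trav14d-3-dv8, any other Trav gene, Trbv1 or any other Trbv gene in 6 gated cell types (x axis), with 1 point per well and a line at the mean of IL-27 wells (left) and PBS wells (right). Trav14d-3-dv8 and Trbv1 were found in B cells of every well, at 19.3% to 26.8% and 70.4% to 79.3%, whereas the other Trav genes stayed at or under 1.98% there.

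In T cells no segment came close to a majority. In CD4 cells the leading segments by share of Trav UMIs were Trav4-4-dv10 (13.0%, 1315 UMIs), Trav4-3 (11.995%, 1209), Trav14d-3-dv8 (11.9%, 1201) and Trav3-3 (7.54%, 760). Trav4-4-dv10 held 10.8%, 11.8% and 17.3% in IL-27 wells and 10.3% and 15.5% in PBS wells. Trav4-3 held 13.2%, 13.1% and 12.5% in IL-27 wells and 6.61% and 13.8% in PBS wells. In these wells the order of Trav4-4-dv10 and Trav4-3 was not the same, so they do not differ beyond their spread. Treg cells had the same leading segments, with Trav4-3 at 15.4%, Trav4-4-dv10 at 13.4%, Trav14d-3-dv8 at 11.4% and Trav3-3 at 7.62%, but on 1247 UMIs, and single wells varied more. Trav3-3, for example, held 15.02%, 3.77% and 2.84% of Treg Trav UMIs in IL-27 wells and 11.6% and 7.23% in PBS wells. In CD8 cells usage was flatter, with Trav14d-3-dv8 at 15.4%, Trav4-3 at 7.30%, Trav4-4-dv10 at 6.84% and Trav3-3 at 5.59%. CD8 Trav14d-3-dv8 was 12.3%, 14.1% and 14.97% in IL-27 wells and 12.7% and 31.8% in PBS wells, with PBS well 2 above all others. The part of the other cells' markers in that value was not tested.

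**Figure D2:**
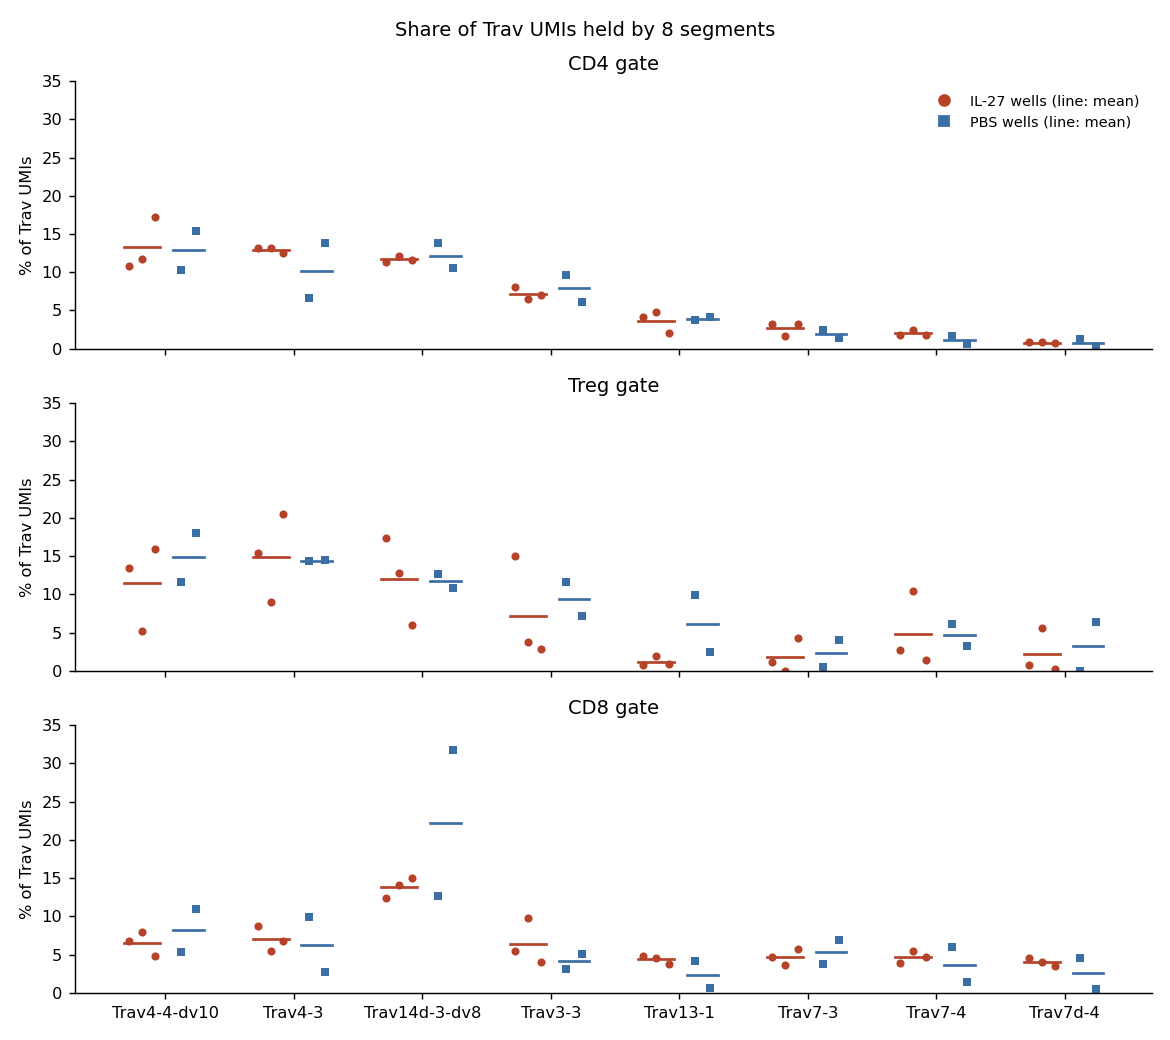
Share of Trav UMIs (y axis, percent) held by 8 segments in the CD4, Treg and CD8 gates, 1 point per well, with lines at the means of the IL-27 (left) and PBS wells (right). The first 4 segments shown stand above the others in CD4 cells, and the CD8 point of PBS well 2 for Trav14d-3-dv8 lies at 31.8%.

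Without Trav14d-3-dv8, the 3 most used segments held 37.0% of Trav UMIs in CD4, 41.1% in Treg and 23.3% in CD8 cells. Each cell with a single most abundant segment was assigned to it, and 2 cells drawn at random then shared their segment in 3.81% of pairs in CD4, 4.86% in Treg and 3.31% in CD8 cells. This was 3.18% to 3.41% in the CD8 gate of 4 wells and 11.6% in PBS well 2, over 115 assigned cells there. The 19 of them assigned to Trav4-4-dv10 are too few to give that value alone. The Trav4 family, to which Trav4-2, Trav4-3 and Trav4-4-dv10 belong, held 31.2% of CD4, 34.3% of Treg and 18.7% of CD8 Trav UMIs. A CD4 cell had 3.58 Trav UMIs on average. Without Trav14d-3-dv8, 21.2% of CD4 cells had no segment, 37.1% had 1, 28.1% had 2, 9.79% had 3 and 3.75% had 4 or more. In CD8 cells these were 29.1%, 37.9%, 23.2%, 8.11% and 1.72%.

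CD8 cells differed from CD4 cells in the CPM of single segments. The fit scales to all genes, and Trav genes without Trav14d-3-dv8 summed to 448 CPM in CD8 and 821 CPM in CD4 cells. A fall in CPM can thus occur at an unchanged share of Trav UMIs. By share, Trav7d-4 and Trav7-4 were higher in CD8 cells of 5 of 5 wells. Trav4-4-dv10, Trav14d-2 and Trav14-2 were higher in 0 of 5, and Trav4-3, Trav3-3, Trav12-3, Trav17 and Trav8d-2 in 1 of 5. UMIs were summed per well and gate and tested with edgeR with the well as a block. Of 38 Trav genes tested, 2 rose and 8 fell in CD8 cells at an adjusted p of 0.05, against 17.3% of all 9335 genes called in either direction (9.14% higher and 8.12% lower). Trav7d-4 had 25.2, 19.2 and 17.98 CPM in CD8 cells of IL-27 wells and 24.6 and 3.27 CPM in CD8 cells of PBS wells, against 7.98, 7.04, 7.67, 10.2 and 4.40 CPM in CD4 cells of the same wells. It was higher in CD8 cells of 4 of 5 wells, the exception being PBS well 2 (log2 fold change 1.65, SE 0.20, edgeR adjusted p = 0.000395). Trav7-4, which is 99.4% identical to Trav7d-4, also rose (log2 fold change 0.81, SE 0.16, edgeR adjusted p = 0.00793), so reads of this pair may have been divided between them by the counting. The largest fall among abundant segments was that of Trav4-4-dv10. It had 36.9, 38.1 and 24.8 CPM in CD8 cells of IL-27 wells and 28.4 and 64.6 CPM in those of PBS wells, against 98.4, 100.5, 178, 83.0 and 196 CPM in CD4 cells. The gates did not overlap (log2 fold change -1.50, SE 0.18, edgeR adjusted p = 0.000417). Trav4-3 (-1.33, SE 0.32, edgeR adjusted p = 0.0185) and Trav3-3 (-1.02, SE 0.23, edgeR adjusted p = 0.0118) fell as well. The other segments that fell were Trav17, Trav14d-2, Trav14-2, Trav12-3 and Trav8d-2, by 1.55, 1.54, 1.51, 1.04 and 0.85 on the log2 scale. Trav7d-4, Trav4-4-dv10, Trav12-3 and Trav14d-2 were called under all 11 alternatives. The coding sequence of Trav14d-2 is 100% identical to that of Trav14n-2, so it does not tell which of them the UMIs belong to. The call of Trav4-3 was lost without IL-27 well 1, 2 or 3, and that of Trav3-3 without IL-27 well 1, IL-27 well 3 or PBS well 1. Trav17 was lost without IL-27 well 1, Trav14-2 without PBS well 1, and Trav8d-2 without IL-27 well 1, IL-27 well 2 or PBS well 1 and without the B marker exclusion. Without IL-27 well 1, 2 or 3, Trav14-2 did not pass the low count filter and was not tested. Without the well block 7 were called, and Trav7-4, Trav14-2 and Trav8d-2 were lost. In all, 18 Trav genes were called without PBS well 2 and 6 without IL-27 well 1. Without PBS well 2, 1465 of all 9332 genes rose and 1395 fell. Without IL-27 well 1, 404 of all 9184 genes rose and 373 fell.

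Between Treg and CD4 cells, 0 of 10 Trav genes tested passed, while 10.6% of 6207 genes did (5.90% higher and 4.72% lower). DESeq2 also called 0, and 4 had an unadjusted edgeR p under 0.05. The strongest was Trav7-4, with 20.9, 63.7 and 11.7 CPM in Treg cells of IL-27 wells and 42.9 and 28.2 CPM in Treg cells of PBS wells, against 17.0, 20.7, 18.03, 13.7 and 7.33 CPM in CD4 cells (log2 fold change 0.96, SE 0.32, edgeR adjusted p = 0.0695). It was higher in Treg cells of 4 of 5 wells. Leaving out PBS well 2 gave 2 calls, and leaving out IL-27 well 1, IL-27 well 3 or PBS well 1 gave 1 each. The Treg gate held 50 to 94 cells per well. Its summed myeloid markers (Lyz2, Cst3, Csf1r) were 137, 255 and 1495 CPM in IL-27 wells 1 to 3. In PBS wells they were 1310 and 1366 CPM, and their part in the Treg results was not tested.

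The next comparison set Trbv1-positive against Trbv1-negative CD4 cells, where a negative cell has no Trbv1 UMI and at least 1 UMI of another Trbv gene. Of 1681 Trbv1-positive CD4 cells, 721 (42.9%) also held another Trbv gene. Of 9 Trav genes tested, 5 fell in Trbv1-positive cells and 0 rose, against 9.71% of 6157 genes called in either direction (3.75% higher and 5.96% lower). By share of Trav UMIs, Trav4-2 and Trav12-3 were lower in 5 of 5 wells, and Trav4-3, Trav7-3 and Trav4-4-dv10 in 4 of 5. Trav14d-3-dv8 and Trav3-3 were higher in 5 of 5 wells, and Trav7-4 and Trav13-1 in 3 of 5. Trav4-2 had 15.8, 9.89 and 19.8 CPM in Trbv1-positive cells of IL-27 wells and 14.2 and 23.4 CPM in those of PBS wells, against 31.4, 25.6, 41.4, 26.3 and 104 CPM in Trbv1-negative cells, and no value overlapped (log2 fold change -1.36, SE 0.24, edgeR adjusted p = 0.000266). Trav4-4-dv10 had 95.9, 108 and 179.6 CPM in Trbv1-positive cells of IL-27 wells and 69.8 and 168 CPM in those of PBS wells, against 131, 108, 235, 197 and 311 CPM in Trbv1-negative cells (-0.68, SE 0.14, edgeR adjusted p = 0.00153). Trav4-3 changed by -0.77 (SE 0.15, edgeR adjusted p = 0.000774), Trav12-3 by -1.07 (SE 0.28, edgeR adjusted p = 0.0124) and Trav7-3 by -1.41 (SE 0.39, edgeR adjusted p = 0.0207). Trav14d-3-dv8 did not pass (0.23, SE 0.13, edgeR adjusted p = 0.36). Without the well block 1 Trav gene was called. Without IL-27 well 2 there were 3, since Trav12-3 and Trav7-3 were lost, and Trav7-3 was also lost without PBS well 1. DESeq2 called 3, without Trav12-3 and Trav7-3. A strict gate took as positive the cells with at least 2 Trbv1 UMIs and no other Trbv gene. Under it 3 of 8 Trav genes fell and 1 rose, against 415 lower and 256 higher of all 6229 genes. The falls were larger there, at -2.55 for Trav4-4-dv10 (SE 0.18, edgeR adjusted p = 9.28e-11), -2.51 for Trav4-3 (SE 0.28, edgeR adjusted p = 4.80e-07) and -2.60 for Trav4-2 (SE 0.41, edgeR adjusted p = 6.54e-05), and Trav3-3 rose by 0.64 (SE 0.20, edgeR adjusted p = 0.0326). With the gate not strict, 12 of 18 tested genes of a list of anergy and chronic stimulation rose and 1 fell, and of 10 naive genes 1 rose and 6 fell.

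In CD8 cells the same split gave 1 call among 10 Trav genes, against 4.95% of 7292 genes (2.28% higher and 2.67% lower). Trav3-3 had 31.7, 64.2 and 22.4 CPM in Trbv1-positive cells of IL-27 wells and 17.1 and 32.3 CPM in those of PBS wells, against 14.9, 17.1, 11.8, 13.9 and 22.8 CPM in Trbv1-negative cells. It was higher in 5 of 5 wells (log2 fold change 1.05, SE 0.22, edgeR adjusted p = 0.00425), but DESeq2 called 0 and the call was lost without the well block, without IL-27 well 1 and without IL-27 well 2. In Treg cells, where PBS well 2 was left out of the fit for holding only 6 Trbv1-negative cells, 0 of 4 Trav genes passed (0.0479% of 2086 genes did). There 3 had an unadjusted edgeR p under 0.05 and DESeq2 called 0. Trav4-4-dv10 came nearest (-2.27, SE 0.43, edgeR adjusted p = 0.0506), and it passed without IL-27 well 2.

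Since B cells held Trbv1 as often as T cells did, CD4 and CD8 cells were also divided by whether they held any Trbv gene other than Trbv1, a split chosen after the data had been seen. It shares cells with the Trbv1 split, and is not independent of it. Shares here leave out Trav14d-3-dv8. In the 1217 CD4 cells with another Trbv gene, Trav4-4-dv10 held 20.9% of Trav UMIs (19.8 to 22.0), against 5.58% (4.85 to 6.39) in the 1265 CD4 cells with none. By well it held 16.0%, 19.2%, 26.6%, 21.2% and 20.6% with another Trbv gene (IL-27 wells 1 to 3, then PBS wells 1 and 2), against 7.23%, 3.05%, 6.64%, 4.04% and 6.84% with none. Trav4-3 held 21.3%, 19.2%, 17.6%, 13.7% and 20.5% with another Trbv gene, against 6.48%, 7.41%, 7.70%, 2.56% and 0% with none. Trav3-3 went the other way, with 5.19%, 5.19%, 4.23%, 7.51% and 4.61% with another Trbv gene, against 14.1%, 11.2%, 14.9%, 14.4% and 13.7% with none. For these 3 segments the 5 values with another Trbv gene did not overlap the 5 with none.

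Of 22 Trav genes tested in CD4 cells, 5 rose and 3 fell in cells with another Trbv gene, against 11.7% of 8122 genes called in either direction (6.80% higher and 4.94% lower). The 5 that rose were Trav4-4-dv10 (log2 fold change 2.45, SE 0.15, edgeR adjusted p = 3.24e-10), Trav4-3 (2.28, SE 0.19, edgeR adjusted p = 7.67e-08), Trav4-2 (2.23, SE 0.39, edgeR adjusted p = 0.000385), Trav7-3 (1.04, SE 0.28, edgeR adjusted p = 0.0187) and Trav7d-3 (1.02, SE 0.28, edgeR adjusted p = 0.0192). The 3 that fell were Trav3-3 (-0.82, SE 0.13, edgeR adjusted p = 0.000166), Trav3-4 (-1.53, SE 0.31, edgeR adjusted p = 0.00199) and Trav6-7-dv9 (-1.33, SE 0.30, edgeR adjusted p = 0.00487). Trav3-3 and Trav3-4 are 91.0% identical to each other, and Trav4-4-dv10 and Trav4-3 are 90.9% identical. Trav7-3 and Trav7d-3 are 99.4% identical, so reads of this pair may have been divided between them by the counting. Trav4-4-dv10, Trav4-3, Trav4-2 and Trav3-3 were called under all 11 alternatives. Trav7-3 was lost without IL-27 well 3 and without PBS well 1, Trav7d-3 without IL-27 well 1 and IL-27 well 2, and Trav6-7-dv9 without IL-27 well 2. DESeq2 called 6, without Trav7-3 and Trav7d-3, and the fit without the well block called 5, without these and Trav3-4.

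**Figure D3:**
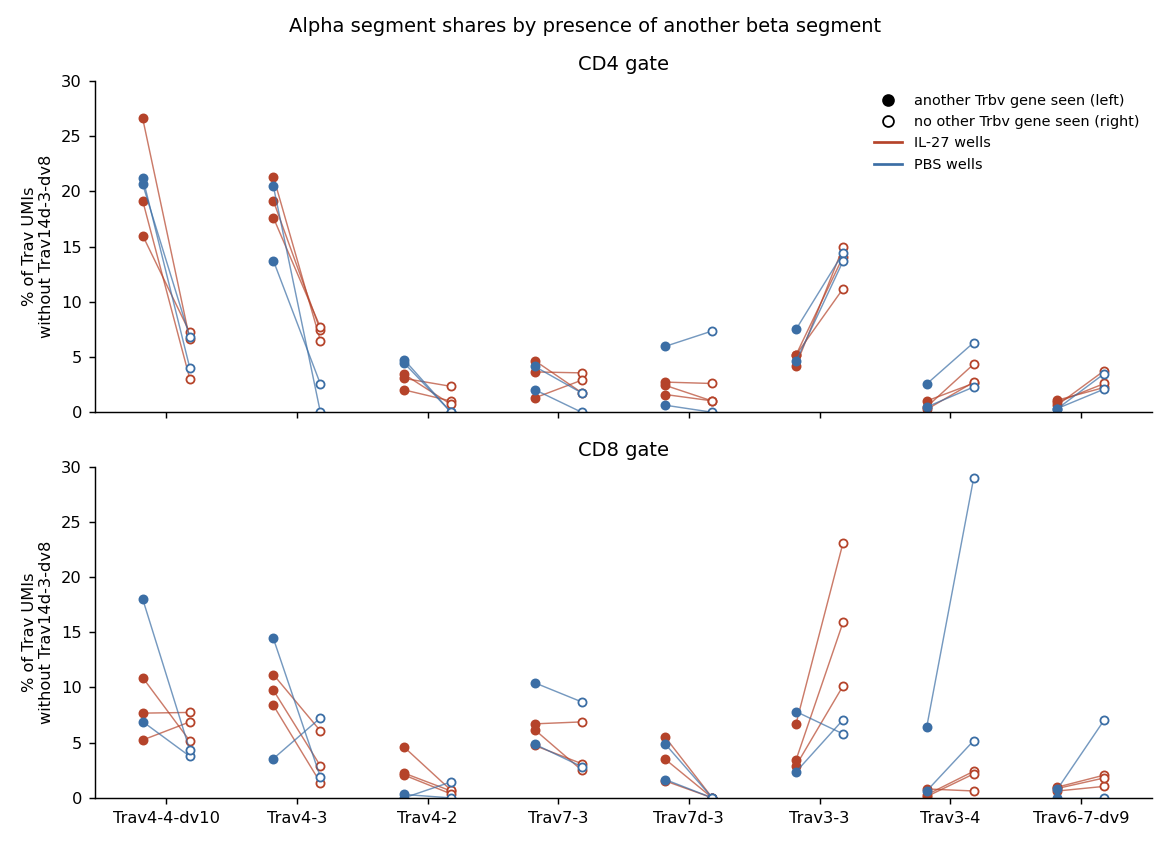
Share of Trav UMIs without Trav14d-3-dv8 (y axis, percent) for 8 segments in cells with another Trbv gene (filled, left) and with none (open, right), joined by well, in the CD4 and CD8 gates. In CD4 cells every line of Trav4-4-dv10 and Trav4-3 slopes down to the right and every line of Trav3-3 slopes up.

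In CD8 cells, 3 of 12 Trav genes rose and 2 fell with another Trbv gene, against 14.6% of 7475 genes (8.49% higher and 6.15% lower). Trav3-3 held 3.43%, 6.70% and 2.93% in IL-27 wells and 2.35% and 7.82% in PBS wells with another Trbv gene, against 15.9%, 23.1%, 10.1%, 7.08% and 5.80% with none (log2 fold change -1.67, SE 0.19, edgeR adjusted p = 1.36e-05). It was lower in 4 of 5 wells, with PBS well 2 the exception. Trav3-4 also fell (-2.26, SE 0.44, edgeR adjusted p = 0.00202). In PBS well 2 it held 6.40% with another Trbv gene and 29.0% in 32 cells with none. Trav4-3 rose (1.65, SE 0.32, edgeR adjusted p = 0.00188) in 4 of 5 wells, with PBS well 2 at 3.55% against 7.25%. Trav16n (1.41, SE 0.38, edgeR adjusted p = 0.0170) and Trav14-1 (0.92, SE 0.30, edgeR adjusted p = 0.0475) rose as well. Trav4-3, Trav16n and Trav14-1 were not called by DESeq2, and without the well block only Trav3-3 was called. Without IL-27 well 1, 3 Trav genes were called. Trav14-1 was lost without IL-27 well 2, IL-27 well 3 or PBS well 1, and Trav16n without IL-27 well 3. Depth differed here, with medians of 5818 UMIs in CD8 cells with another Trbv gene and 4312 in those with none, while CD4 medians were 3902 and 3615. Its part in the result was not tested.

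The cells on both sides of this split also differed in genes of T cell state. In CD4 cells with another Trbv gene, 12 of 20 tested genes of a list of anergy and chronic stimulation fell and 1 rose (median log2 fold change -0.72, against -0.0055 over all genes tested). Those that fell include Ikzf2 (Helios; -1.17, SE 0.10), Lag3, an inhibitory receptor for MHC class II (-1.07, SE 0.10), Izumo1r (folate receptor 4; -0.98, SE 0.08), Cd200 (-1.28, SE 0.12) and the activation-induced factors Egr2 (-1.15, SE 0.14) and Nr4a1 (-0.94, SE 0.17), and Tigit, another inhibitory receptor, rose by 1.10 (SE 0.25). Of 11 tested effector genes 5 rose and 2 fell. Ccl5, a chemokine, rose by 3.04 (SE 0.37), Ifng, interferon gamma, by 2.58 (SE 0.34), Cxcr3, a homing receptor of inflamed tissue, by 2.36 (SE 0.31), Cxcr6 by 1.62 (SE 0.29) and Id2 by 0.95 (SE 0.13). The genes that fell, Bcl6 and Cxcr5, mark follicular helper cells. Of 10 naive genes 3 rose and 2 fell, with Il7r, the IL-7 receptor, up by 2.16 (SE 0.15) and Bach2 down at -0.93 (SE 0.14). Of 10 tested receptor complex genes 2 rose (Cd5 and Cd6) and 2 fell (Trbc1 at -0.94 and Trbc2 at -0.23). In CD8 cells the anergy list had 13 of 18 genes lower and 0 higher (median -1.25, against 0.0041 over all genes), led by Izumo1r (-2.89, SE 0.16) and Nr4a1 (-2.79, SE 0.16), and the effector list had 5 higher and 1 lower of 11, led by Gzmb, a cytotoxic protease (2.95, SE 0.48). Il18r1, the only innate-like gene tested in CD4 cells, rose by 2.34 (SE 0.24). All these are edgeR log2 fold changes with adjusted p under 0.05.

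**Figure D4:**
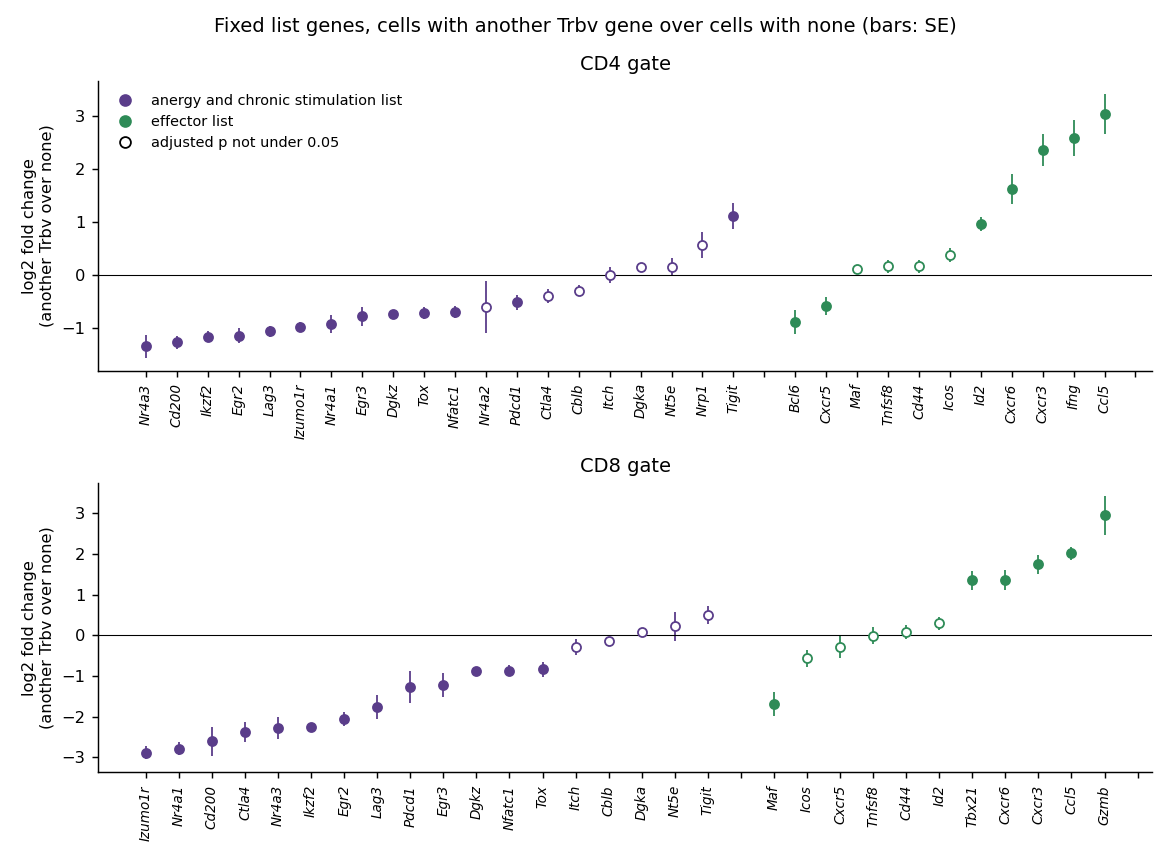
Log2 fold change (y axis, cells with another Trbv gene over cells with none, bars are SE over the well-blocked fit) of the tested genes of the anergy and chronic stimulation list and the effector list in CD4 (top) and CD8 cells (bottom), filled where the edgeR adjusted p was under 0.05. In CD4 cells 12 of 20 genes of the first list are filled below 0, and in CD8 cells 13 of 18.

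Assigned by segment, CD4 cells showed the same contrast for Ikzf2 and Lag3, as a description. Ikzf2 was 72.6 CPM in 174 cells assigned to Trav4-4-dv10, 122 CPM in 157 cells assigned to Trav4-3, 377 CPM in 119 cells assigned to Trav3-3 and 332 CPM in 1203 cells assigned to other segments. Ikzf2 was lower in Trav4-4-dv10 than in Trav3-3 cells of 5 of 5 wells, but PBS well 2 held only 4 Trav3-3 cells. Lag3 was 121, 124, 337 and 314 CPM in the same order. It was lower in Trav4-4-dv10 than in Trav3-3 cells of 4 of 5 wells, with PBS well 2 at 193 against 0 CPM in those 4 cells. Pdcd1, of the same list, was 134, 87.9, 180 and 137 CPM, with little difference between Trav4-4-dv10 cells and those of other segments. Another Trbv gene was seen in 79.3%, 80.3%, 25.2% and 47.7% of these cells. Within Trbv1-positive CD4 cells, those assigned to Trav4-4-dv10 had 14 lower and 0 higher genes outside the Trav genes than those assigned to another segment (0.388% of 4127 genes called with Trav genes included, 0.0242% higher and 0.363% lower). Among them were Ikzf2 (log2 fold change -2.04, SE 0.32, edgeR adjusted p = 0.00904), Lag3 (-1.40, SE 0.25, edgeR adjusted p = 0.0172) and Izumo1r (-1.16, SE 0.24, edgeR adjusted p = 0.0431). The count rested on few cells (12 to 42 per well) and was 0 without IL-27 well 3, 4 without IL-27 well 2, 6 without PBS well 1, 26 without PBS well 2 and 5 without the well block. When Trav14d-3-dv8 was kept, it led Trbv1-positive CD4 cells by mean share, and cells assigned to it had 1 higher and 8 lower genes outside the Trav genes (0.335% of 3879 genes called with Trav genes included, 0.0516% higher and 0.284% lower), of which Il7r was the one on a fixed list (-1.06, SE 0.24, edgeR adjusted p = 0.0409). That count was 4 without IL-27 well 3, 28 without PBS well 2 and 1 without the well block.

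In CD4 cells most segments had IL-27 and PBS shares within 2-fold of each other. Of 51 Trav genes tested, 0 differed between the 3 IL-27 and the 2 PBS wells by edgeR, and of all 9766 genes 0% were called. DESeq2 called 0 Trav genes, and 6 Trav genes had an unadjusted edgeR p under 0.05. With PBS well 1 or PBS well 2 left out, some Trav genes were called. Each such fit holds a lone PBS well whose spread is assumed to equal that of IL-27 wells, so its calls are not counted here. Of the fixed lists of T cell genes, 0 genes were called, as among all genes. Of 43 segments with at least 50 UMIs in CD4 cells, 39 had an IL-27 over PBS ratio of share within 2-fold, and the median log2 ratio was -0.0073. The counting interval of the ratio left out 1 for 10 of the 43. Sex also differed between the groups and cannot be told apart from treatment. The CPM of the IL-27 and PBS wells did not overlap for 10 of the 43, against 21.0% of the 9237 genes with at least 50 UMIs. For a single share 3 against 2 wells make 10 splits, so an exact two-sided permutation test could not go below 0.1.

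Shares here again leave out Trav14d-3-dv8, except its own, which is of all Trav UMIs. The ratio farthest from 1 was that of Trav6-2, with 117 UMIs in 24 IL-27 cells and 4 UMIs in 2 PBS cells, or 2.63%, 1.302% and 1.18% of Trav UMIs in IL-27 wells and 0.292% and 0% in PBS wells (ratio 9.31, 3.54 to 34.7; edgeR adjusted p = 0.865). Trav9-2 was next, with 1.11%, 2.19% and 1.302% in IL-27 wells and 0.877% and 0.129% in PBS wells (ratio 2.45, 1.37 to 4.76). Trav13n-4 (ratio 2.001) and Trav6-5 (1.78) followed, and their wells overlapped. At the other end Trav13-2 held 1.15%, 2.14% and 1.13% in IL-27 wells and 3.14% and 2.45% in PBS wells (ratio 0.493, 0.355 to 0.690). Trav3-1 (0.527), Trav14n-1 (0.531) and Trav15-1-dv6-1 (0.562) were next. Among the leading segments the ratio was 1.09 (0.958 to 1.25) for Trav4-4-dv10, 1.39 (1.20 to 1.62) for Trav4-3, 0.922 (0.809 to 1.05) for Trav14d-3-dv8 and 0.851 (0.724 to 1.00) for Trav3-3. The Trav4-3 wells overlapped, since PBS well 2 (15.5%) lay above and PBS well 1 (7.68%) below the IL-27 wells. In Trbv1-positive CD4 cells the share of the leading segment, Trav14d-3-dv8, was 12.4% with IL-27 and 13.5% with PBS, a difference of -1.05 percentage points. Markers of other cells moved with the groups in the CD4 gate. Summed myeloid markers (Lyz2, Cst3, Csf1r) were 131 to 204 CPM in IL-27 wells and 533 and 871 CPM in PBS wells, the B markers Cd79a and Ms4a1 were at 0 by the gate, and their part in the result was not tested.

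**Figure D5:**
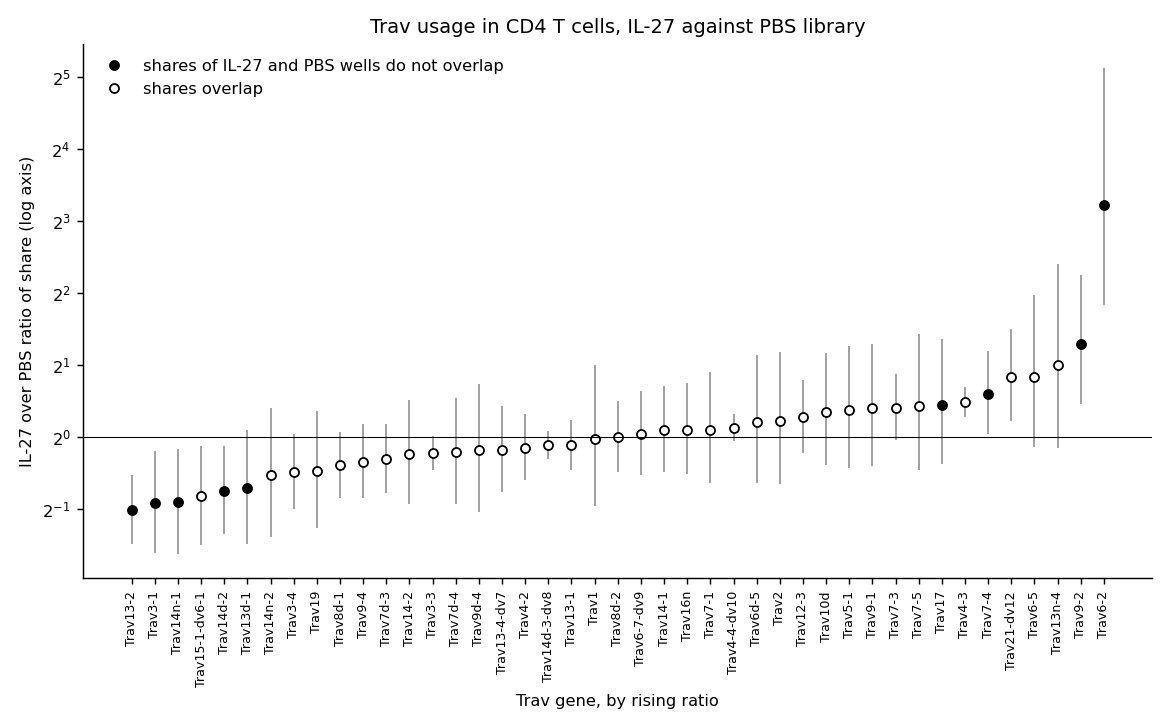
Ratio of the share of Trav UMIs in CD4 cells, IL-27 over PBS library (y axis, log scale), for 43 segments with at least 50 UMIs, ordered by ratio, with exact 95% intervals that cover counting error only. Filled points mark the 9 segments whose well shares did not overlap, and Trav6-2 at 9.31 is the highest.

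Segments shared with the delta chain were a small part of alpha usage beyond Trav14d-3-dv8 and Trav4-4-dv10. Trav15-1-dv6-1 held 0.823% of Trav UMIs in CD4 and 1.52% in CD8 cells, and Trav15-2-dv6-2 held 0.437% and 1.55%. In 549 gamma-delta cells (Trdc present, no Cd4 or Cd8b1) these were the main segments besides Trav14d-3-dv8. The gate allowed Cd8a, and 38.4% of its cells held a Trbv gene other than Trbv1. Whether some of them carry alpha and beta chains was not tested. Trav15-2-dv6-2 held 265 of 845 Trav UMIs (31.4%) and Trav15-1-dv6-1 held 115 (13.6%). By well Trav15-2-dv6-2 held 30.1%, 14.4% and 22.1% of gamma-delta Trav UMIs in IL-27 wells and 40.3% and 37.4% in PBS wells. Trav21-dv12, Trav6-7-dv9, Trav13-4-dv7 and Trav16d-dv11 held 1.70%, 1.42%, 1.27% and 0.159% of CD4 Trav UMIs. The invariant receptor of mouse NKT cells uses Trav11 or Trav11d, and both, like Trav11n, had 0 UMIs in the CD4, Treg and CD8 gates. Trav11 and Trav11d are 99.7% identical and had no unique 50-base window, and how reads that match both were counted was not given in the sources used here. Trav1, the segment of MAIT cells, had 99 UMIs in these gates, 53 of them in CD4 and 41 in CD8 cells.

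Some segments were found together in 1 cell more often than their frequency. The 52 segments seen in at least 30 cells make 1326 pairs. These were ranked by the percent of cells with the rarer segment that held the other, leaving out pairs with few shared cells. The 15 pairs most often together included 8 with at least 80% sequence identity and 5 lying at most 3 places apart on the locus. Of all 1326 pairs, 86 lay at most 3 places apart, and those with at least 80% identity were not counted. The first kind includes Trav13d-1 and Trav13-1, 96.4% identical, where 50% of cells with Trav13d-1 held Trav13-1, against 4.76% of all cells. The second kind includes Trav9-4 and Trav3-3, neighbours on the locus that are 57.4% identical. Of 186 cells with Trav9-4, 70 (37.6%) held Trav3-3, against 9.63% of all cells. By well this was 37.3%, 40.6% and 38.5% in IL-27 wells and 42.9% and 28.6% in PBS wells. Trav4-4-dv10, 2 places from Trav3-3, was joined by Trav3-3 in 24.2% of its 417 cells. Over all pairs the median share of cells with the partner was 3.51% for 86 pairs at most 3 places apart and 1.64% for 1240 pairs farther apart, against medians of 2.65% and 2.39% of all cells with the partner.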

How the data were processed

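UMI count matrices were used as deposited, 1 per group. Cell Ranger 3.0.0 and the mm10 build are named per the submitters' processing notes, while the software version is 3.1.0 per the file headers. Other steps were not given in the sources used here. Cells with at least 200 genes and at most 10% mitochondrial UMIs were kept. Scrublet (scanpy 1.11.5), run per well, removed 4.17%, 2.53% and 1.995% of cells in the IL-27 wells and 1.58% in PBS well 1. In PBS well 2 it marked 0.0183%, under the 0.5% taken to show that it worked, so nothing was removed there.

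UMIs summed per well and state were tested over all genes with edgeR 4.0.16 (quasi-likelihood, TMM, filterByExpr, well as block, Benjamini-Hochberg adjusted p under 0.05) in R 4.3.3. The block pairs states of 1 well, which the barcode suffixes give. Wells needed 10 cells per state. A marker that the T cell gate also used is not reported here. DESeq2 1.42.0, RLE scaling, no low count filter, other gates, no block and leaving out each well were alternatives. The fits were tested on simulated data. Shares have exact (Clopper-Pearson) 95% intervals. Coordinates, types and sequences come from GENCODE M21 (GRCm38, which mm10 corresponds to), and 128 of 128 Trav IDs matched.

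The members, lists and tests were chosen with earlier results of these data known. Segments named hold at least 5% of Trav UMIs in a gate of a library, were among the 6 highest or lowest called in a comparison, were among the 4 highest or lowest IL-27 over PBS ratios, hold dv in their symbol, or are Trav1 and the Trav11 genes. Trav13d-1, Trav9-4 and Trav11n were named after their values were seen. The split by another Trbv gene and the results without Trav14d-3-dv8 were added after the data had been seen. Fixed lists had 21 anergy and chronic stimulation, 14 effector, 10 naive, 16 receptor complex and 6 innate-like genes, the last with at most 3 genes tested in a comparison.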

Additional observations from a re-analysis of the deposited data

Results flagged for a closer look

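Among 88 pairs of a segment and a comparison between cell states, 6 moved one way in all 3 IL-27 wells and the other way in both PBS wells, by the share of Trav UMIs. The difference between the libraries was not tested for any of them. Trav7-3 differed between Trbv1-positive and Trbv1-negative CD8 cells by -2.23 percentage points on average over the IL-27 wells and by 2.70 over the PBS wells. Trav13-1 differed in the same comparison by -2.07 and 0.769, and Trav14-1 by -1.43 and 0.877. Trav3-4 differed between CD8 and CD4 cells by -0.731 in the IL-27 wells and 1.85 in the PBS wells. Trav7d-3 differed between Treg and CD4 cells by 0.778 and -1.14. Trav16n differed between CD4 cells with another Trbv gene and those with none by -1.46 and 0.323.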

How the results depend on the processing

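Every one of the 316 values of the 29 called segment and comparison pairs kept its direction under the alternatives, and 264 stayed called. Among the numbers of Trav genes called, the Trbv1-positive against Trbv1-negative comparison gave 5 in CD4 cells, 3 with DESeq2, 12 without the low count filter, 4 with the strict gate and 3 to 7 without 1 well. In Treg cells it gave 0 in the reported fit, 1 without the filter, 1 without doublet removal, 1 with the strict Trbv1 gate and 0 to 1 without 1 well. In CD8 cells it gave 1, 0 with DESeq2, 2 without the filter, 0 without the B marker exclusion, 2 with the strict gate and 0 to 1 without 1 well. Treg against CD4 cells gave 0, 16 without the filter and 0 to 2 without 1 well. CD8 against CD4 cells gave 10, 21 without the filter and 6 to 18 without 1 well. IL-27 against PBS gave 0, 1 without the filter and 0 without 1 IL-27 well. Fits without 1 PBS well hold a lone PBS well and are not counted here. The split by another Trbv gene gave 8 in CD4 cells, 6 with DESeq2, 16 without the filter and 6 to 10 without 1 well, and 5 in CD8 cells, 2 with DESeq2, 17 without the filter and 3 to 7 without 1 well. Genes called in cells assigned to Trav14d-3-dv8 numbered 9, 2 with DESeq2, 56 without the filter, 3 with the strict gate and 4 to 28 without 1 well. For Trav4-4-dv10 they numbered 14, 139 without the filter, 7 without the B marker exclusion and 0 to 26 without 1 well. Without the well block the CD4 and CD8 Trbv1 comparisons gave 1 and 0, the another-Trbv comparisons 5 and 1, and the cells assigned to Trav14d-3-dv8 and Trav4-4-dv10 gave 1 and 5, and CD8 against CD4 gave 7. The leading share in Trbv1-positive CD4 cells was 12.7%, 12.4% to 13.1% without 1 well, 15.2% as a share of cells, 15.3% with the strict gate and 14.96% for Trav4-4-dv10 with Trav14d-3-dv8 left out. Its IL-27 minus PBS difference of -1.05 points lay between -2.11 and 0.702 without 1 well, and it turned to 0.926 in cells thinned to 1000 UMIs, 2.49 with the strict gate and 3.49 for Trav4-4-dv10. With the strict gate and Trav14d-3-dv8 left out, Trav3-3 led in place of Trav4-4-dv10. The cause of these shifts was not tested, apart from the smaller number of wells or the larger number of genes that an alternative itself brings.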
